A study of Rattus norvegicus with 125 samples.

Results

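Normal gene expression in the kidney was set against brain, heart and liver of the same rats. The kidney group is 4 of the 125 arrays of the study, and the brain, heart and liver groups are 4 arrays each. All 16 arrays came from 4 adult male Sprague-Dawley rats, numbered 126, 132, 138 and 156 in the labels, that breathed air in a whole-body chamber for 40 min and gave their organs 6 h later. A gene was called kidney-enriched by its gap, the kidney mean minus the highest of the other 3 organ means on the log2 scale. The gap had to be at least 1, which is 2-fold, and the kidney had to exceed each of the other organs in a limma fit with the rat as a block at an adjusted p under 0.05. By this rule 695 of 13438 genes were kidney-enriched, or 5.17%, and 66 genes, or 0.491%, were lowest in kidney by the mirror rule.

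Further groups of the study served as repeats. They were Air kidney, brain and heart at 1, 3 and 24 h (4 arrays each, except 2 for heart at 24 h), and Air lung at 3 h (2 arrays) and 24 h (4 arrays). They also included kidneys of rats that had breathed phosphine (PH3), a fumigant gas that inhibits mitochondrial respiration, at 387 ppm for 40 min and were sampled at 1, 3, 6 and 24 h, 4 rats at each time. RNA came from flash-frozen, pulverised tissue and was labelled from its 3' end. The labels do not say which zone of the kidney was taken. In such bulk RNA, fewer cells of a type and less RNA per cell cannot be told apart. Nothing in the labels says how the rats were grouped into litters or days, so the p-values measure the spread between these animals.

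The kidney filters plasma in glomeruli and then recovers most of the filtrate along the tubule. The proximal tubule takes back sodium, phosphate, sugars, amino acids and small proteins and secretes organic ions, the thick ascending limb takes up salt without water, and the distal tubule and collecting duct set the final urine under hormonal control. Like the liver, the kidney makes glucose and handles amino acids and foreign compounds, and its tubule cells form an epithelium, which brain and heart muscle do not.

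Values below are the deposited log2 signals of 1 probe set per gene, the one with the highest mean over the 16 arrays. Where 4 array values are given for an organ, they stand in the order of rats 126, 132, 138 and 156. Means carry the SD over 4 rats, and gaps carry the standard error of the fit. The 25th percentile of the 16 arrays was 3.80 to 3.97, so a level near 4 lies at the bottom of the scale, and folds against such levels may understate the true ratio. Members of a gene list that are named although they did not pass were picked after their values were seen.

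Correlations between the 4 kidney arrays ran from 0.98 to 0.99, against 0.63 to 0.83 between organs. The kidney array of rat 126 stood apart from the other 3. It held 108 genes at least 1 above and 18 genes at least 1 below the range of the other 3 kidneys, while the 3 others held 5 to 21 above and 7 to 10 below. Of 14 markers of tubule injury, a list added after the values were seen, 11 were highest in this kidney of the 4, and 6 lay at least 1 above the other 3 (Havcr1, Clu, Timp1, Lcn2, Spp1 and Cd44). Sox9, Vcam1 and Ccl2 lay within the range of the others. The array of this kidney also had the highest median signal of the 4, at 6.30 against 6.16 to 6.21. How many of all genes were highest in it was not counted. Havcr1, which encodes the injury marker KIM-1, was 10.34 in that kidney, against 4.29, 4.11 and 4.34 in the kidneys of rats 132, 138 and 156. Across the study it exceeded 8 in 0 of 16 PH3 kidneys and in 1 of 16 Air kidneys, this one. Clu, a chaperone that damaged tubules release, was 12.22 in it and 9.02, 8.81 and 8.81 in the others. The immune cell list averaged 8.35 in it, against 7.43 to 7.66 in the others. Of the 695 kidney-enriched genes, 5 lay above and 6 below the other kidneys by 1 or more in this rat, among them Spp1 (12.36 against 10.91, 11.04 and 10.38) and Klk1 (9.89 against 11.68, 11.48 and 11.30). Without this array 682 genes were kidney-enriched, of which 665 were among the 695, and 78 genes were lowest in kidney, of which 65 were among the 66. Of 152 named genes, 146 kept their direction and side of the threshold without it. The other 6, Slc6a6, Acsm3, Gstp1, Pou3f3, Hspa2 and F3, had gaps of 0.80 to 0.98 without it and lost the call.

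**Figure D1:**
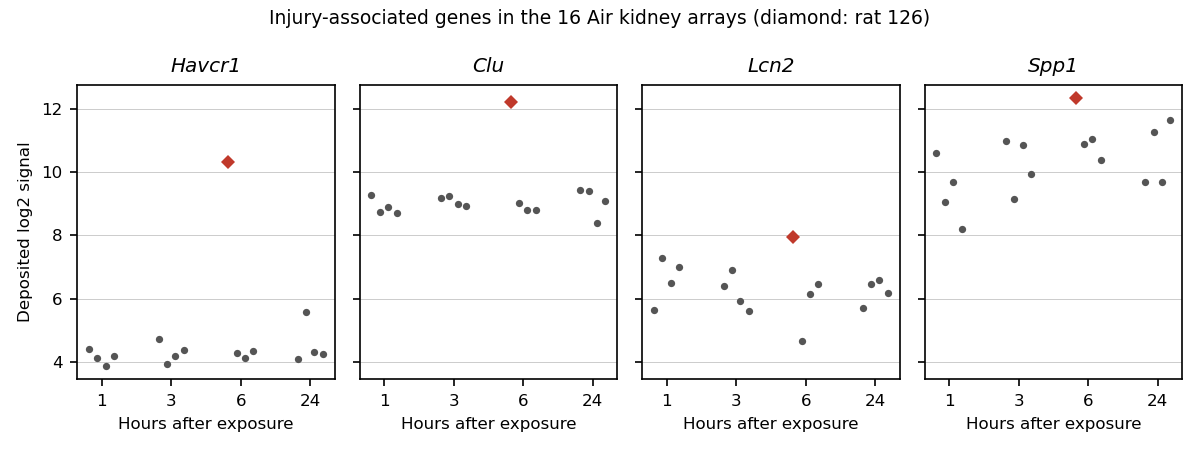
Deposited log2 signal (vertical axis) of Havcr1, Clu, Lcn2 and Spp1 in the 16 Air kidney arrays by hours after exposure (horizontal axis), 1 point per rat, with the kidney of rat 126 as a red diamond. Havcr1 was 10.34 and Clu 12.22 in that kidney, each well above the other 15 arrays.

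The pairwise comparisons showed how far the kidney differs from each organ. Kidney was higher than brain in 5775 genes (43%) and lower in 3902 (29%). Against heart it was higher in 4320 genes (32.1%) and lower in 4085 (30.4%), and against liver it was higher in 4400 (32.7%) and lower in 3541 (26.4%). Of the genes that differed, 59.7% were therefore higher in kidney than in brain, but 38.1% when each array was centred on a list of housekeeping genes and 51.3% when each was centred on its median. The same shares were 51.4%, 43.7% and 37.5% against heart and 55.4%, 44.1% and 35.5% against liver. Housekeeping centring moved the median of all genes against brain to -0.23, against 0.16 as deposited, so the balance of higher and lower genes rests on the scaling. The count of kidney-enriched genes moved less: 600 genes passed with housekeeping centring and 584 with median centring, and each of them was among the 695. Both centrings lowered the kidney against each other organ, so they could hardly add enriched genes. The genes lowest in kidney rose from 66 to 98 with housekeeping centring and 103 with median centring.

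Among the 695 kidney-enriched genes the gap reached 2 or more in 341 and 4 or more, which is 16-fold, in 126. The median gap was 1.99, against -0.48 over all 13438 genes. In 679 of the 695 the 4 kidney arrays all lay above the other 12, an ordering that 1359 of all genes, or 10.1%, showed. The rule chose the 695 on these same arrays by a gap of at least 1, so both results describe the selection. The second-highest organ was liver for 311 of the genes, heart for 199 and brain for 185. Of the 162 kidney-enriched genes with several probe sets, 65 had each probe set enriched and 37 had a probe set on which the kidney did not exceed the other 3 organs. Just inside the threshold lay Usp10, Tyw3 and Gosr2 with gaps of 1.00, and just outside lay Slit2 with 0.99 and Crym and Tcaim, whose gaps fell short by less than 0.01.

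The largest gap belonged to Kap, which encodes the kidney androgen-regulated protein known from the mouse proximal tubule. Its log2 signals were 13.65, 13.65, 13.73 and 13.66 in kidney, against 4.24, 3.83, 4.86 and 3.56 in brain, 3.55, 3.60, 3.33 and 3.76 in heart and 3.55, 3.82, 3.43 and 3.74 in liver. The kidney values lay close together and far above the other 12, with a gap of 9.55 ± 0.22 or 751-fold (limma adjusted p = 8.65e-15). Umod, which encodes uromodulin, the main protein of normal urine, followed with 12.59, 13.09, 13.21 and 13.06 in kidney, against 3.36 to 3.68 in brain, 3.28 to 3.41 in heart and 3.41 to 3.61 in liver. Its gap was 9.45 ± 0.14 (limma adjusted p = 1.23e-16), and the kidney of rat 126 was the lowest of the 4. The other genes of the 25 with the largest gaps serve transport (Slc7a13, Slc34a1, Slc12a1, Slc22a2, Slc3a1, Slc7a9, Slco1a6, Slco1a3, Aqp2 and the amino acid transporter chaperone Cltrn), the proton pump (Atp6v1g3, Atp6v0a4), the brush border (Mep1a, Mep1b, Ggt1) and defence or repair at the epithelial surface (the beta-defensin Defb1, the trefoil factor Tff3). The remaining members are the cadherin Cdh16, the basement membrane protein Tinag, the deoxyribonuclease Dnase1, the homeobox gene Hoxd8, the beta-glucosidase Gba3 and Fam151a. Slco1a3 and Slco1a6 have close relatives in their family, and whether their probe sets read more than 1 of them was not tested.

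**Figure D2:**
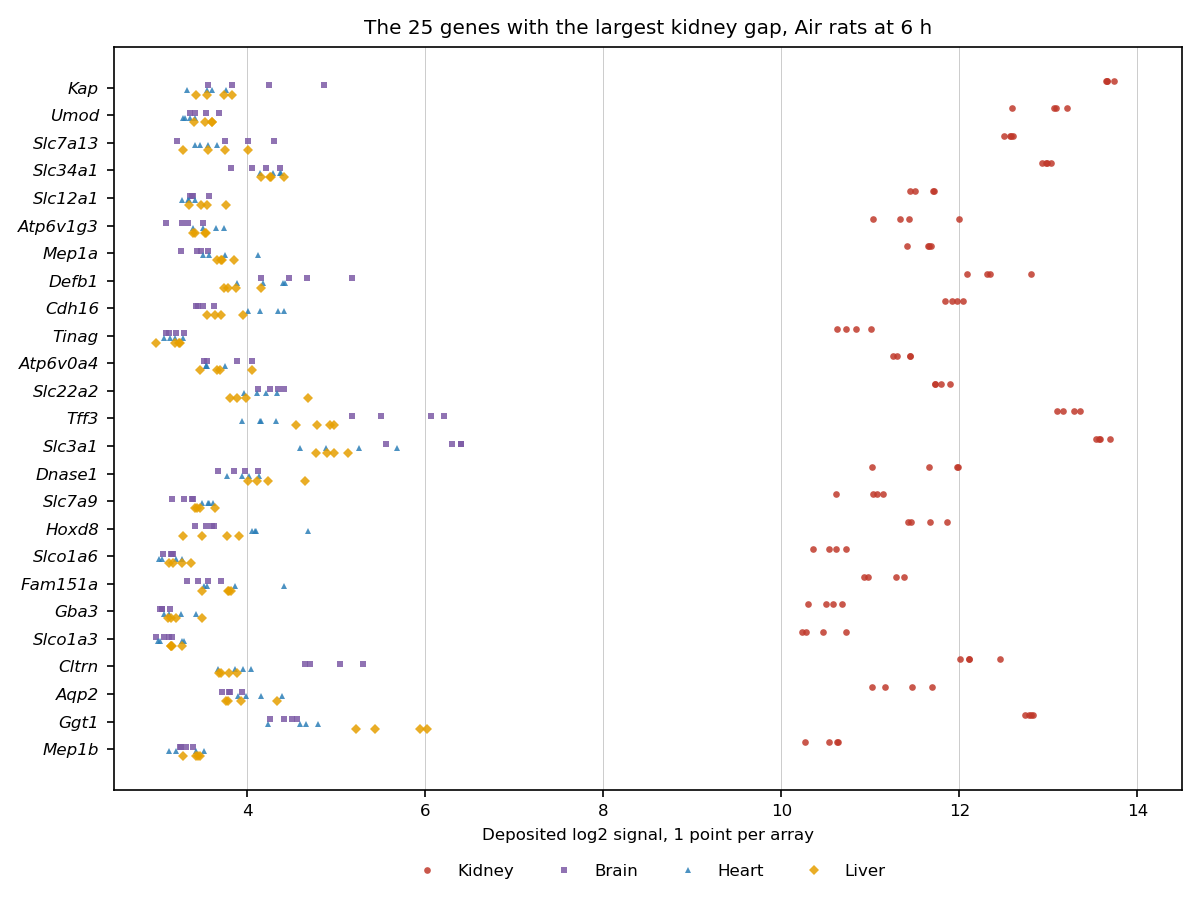
Deposited log2 signal (horizontal axis) of the 25 genes with the largest kidney gap, 1 point per array, for kidney, brain, heart and liver of the 4 Air rats at 6 h. The kidney points stand apart from those of the other organs for each gene, with Kap (gap 9.55) at the top and Mep1b (gap 7.11) last.

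The gene lists divide the kidney by segment and task. Of 13 measured markers of podocytes, the filtering cells of the glomerulus, 1 was kidney-enriched, a share near the 5.17% of all genes, and the median gap of the list was -0.35. Foxc1, Foxc2, Synpo and Pla2r1 lay near the bottom of the scale in kidney, with means of 3.35 to 4.11. That gene was Nphs1, which encodes nephrin of the slit diaphragm, with 6.99, 7.55, 7.15 and 7.67 in kidney against 3.32 to 3.90 in the other 12 arrays, and a gap of 3.60 ± 0.15 (limma adjusted p = 1.23e-11). Wt1, a podocyte transcription factor, averaged 6.54 ± 0.14 in kidney, 4.25 in brain, 7.60 in heart and 4.48 in liver, so that heart was highest. Robo2 and Thsd7a were highest in brain, Plce1 and Clic5 were highest in heart, and Podxl averaged 10.18 ± 0.16 in kidney and 10.09 in heart. Ptpro and Tcf21 were highest in kidney but did not pass. Ptpro had 7.46 to 8.16 in kidney against 7.08 as the highest other array, in brain. Tcf21 had 5.75 to 6.56 in kidney against 5.61 as the highest other array, in heart. Of the renin cell and mesangial list, 1 of 8 was enriched (median gap -1.48), namely Gata3, which the collecting duct also expresses.

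Proximal tubule genes were among the most enriched. Of 17 measured genes for sodium-coupled and bicarbonate transport, 11 were kidney-enriched (median gap 2.71). The phosphate transporter Slc34a1 had 13.02, 12.99, 12.93 and 12.97 in kidney, against 3.82 to 4.36 in brain, 4.15 to 4.38 in heart and 4.15 to 4.41 in liver, a gap of 8.68 ± 0.13 (limma adjusted p = 1.23e-16). The 4 kidneys were nearly alike and lay above the other 12 arrays. The glucose transporter Slc5a2, the target of the gliflozins, had a gap of 6.19 ± 0.14. The second phosphate transporter Slc34a3 followed with 5.40, the sodium-proton exchanger Slc9a3 with 5.37, the sulfate transporter Slc13a1 with 5.28 and the lactate transporter Slc5a12 with 4.54. Among the 6 that did not pass, Slc5a1, the other sodium-glucose transporter, was near the bottom of the scale in kidney at 4.33 ± 0.06. Slc26a1, a sulfate exchanger, averaged 9.77 ± 0.25 in kidney and 10.62 in liver.

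Amino acid and peptide transporters gave 10 of 15 (median gap 2.09). Slc3a1 and Slc7a9 encode the 2 chains of the cystine transporter. The gap of Slc3a1 was 7.43 ± 0.18, from 13.69, 13.58, 13.57 and 13.53 in kidney against 6.40 as the highest of the other 12 arrays. Slc7a9 had a gap of 7.40 ± 0.13. Slc7a13, another partner of the Slc3a1 chain, had 12.50, 12.60, 12.56 and 12.57 in kidney against 4.30 as the highest other array, and a gap of 8.74 ± 0.21 (limma adjusted p = 1.27e-14). Both the partners and the shared chain were thus far higher in kidney than in the other 3 organs. Cltrn (gap 7.24), Slc6a18 (6.81), a transporter that needs it, and Slc7a7 (4.62), which exports basic amino acids across the basolateral side, complete the 6 largest. Slc6a13, which carries GABA and taurine, averaged 7.77 ± 0.26 in kidney and 9.68 in liver and did not pass.

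Protein uptake by the proximal tubule relies on large receptors, and 5 of 9 genes of that list were kidney-enriched (median gap 2.09). Cubn, the receptor cubilin, had 11.37, 11.04, 10.87 and 11.40 in kidney, against 4.01 to 4.33 in brain, 3.36 to 3.74 in heart and 3.57 to 4.02 in liver. Its membrane partner Amn had a gap of 6.39 ± 0.14, close to the 7.06 ± 0.16 of Cubn. Lrp2, the receptor megalin, had 12.17, 12.59, 12.37 and 12.26 in kidney and 6.07 to 6.40 in liver, the next organ, a gap of 6.07 ± 0.19 (limma adjusted p = 4.28e-13). The folate receptor Folr1 (gap 4.88) and the adaptor Dab2 (gap 2.09) were enriched too. Clcn5, the endosomal chloride channel mutated in Dent disease, gave 3.64 ± 0.08 in kidney and 3.25 to 3.71 as means of the other organs on its single probe set, at the bottom of the scale.

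The brush border list had the largest share, with 14 of 16 measured members enriched (median gap 2.41). The meprin subunits Mep1a and Mep1b, secreted and membrane proteases, had gaps of 7.86 ± 0.13 and 7.11 ± 0.13. Ggt1, which breaks down glutathione at the brush border, had a gap of 7.13 ± 0.15. Mme (6.40), the protease neprilysin, Pdzk1ip1 (6.23) and the cadherin Cdhr5 (5.33) followed. The 2 members that did not pass were Ace, at 6.42 ± 0.46 in kidney and 6.17 in brain, and Treh, at 3.40 ± 0.12 in kidney and 3.23 to 3.53 in the other organs.

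The thick ascending limb gave 9 of 12 (median gap 4.44, the highest median of the lists). Slc12a1, the sodium-potassium-chloride transporter that loop diuretics block, had 11.51, 11.70, 11.71 and 11.44 in kidney, against 3.35 to 3.57 in brain, 3.27 to 3.41 in heart and 3.35 to 3.77 in liver. The gap was 8.05 ± 0.13 (limma adjusted p = 3.73e-16), with no overlap between kidney and the other arrays. The calcium-sensing receptor Casr (gap 5.55), the magnesium-pathway claudin Cldn16 (5.35) and its partner Cldn19 (4.61), and the chloride channel subunit Bsnd (4.81) were enriched as well. Cldn14, which opposes that pathway in mouse, averaged 3.63 ± 0.12 in kidney and 6.69 in liver.

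In the distal convoluted and connecting tubule list 7 of 14 passed (median gap 0.94). Slc12a3, the thiazide-sensitive salt transporter, had 10.33, 10.74, 11.11 and 10.95 in kidney against 5.70 as the highest other array, and a gap of 5.33 ± 0.16 (limma adjusted p = 2.99e-13). Klk1, tissue kallikrein, had a gap of 6.76 ± 0.70, and rat 126 differed from the other rats in 2 organs. Its kidney value in rat 126 was 9.89 against 11.30 to 11.68 in the others, and its brain value in the same rat was 7.56 against 3.21 to 3.31 in the other brains. Klk1 has near-identical relatives in the rat, and whether its probe set reads more than 1 of them was not tested. Fxyd2, a subunit of the sodium pump, had a gap of 6.49 ± 0.25. Calb1, the calcium buffer calbindin, was high in 2 organs, with 11.33, 12.13, 12.01 and 11.78 in kidney, 10.67, 10.19, 11.21 and 10.81 in brain and at most 3.65 in heart and liver. Its gap of 1.09 ± 0.19 lies near the threshold. Trpv5, the calcium channel of this segment, gave 4.59 ± 0.21 in kidney and 5.01 in liver on the probe set used, though 1 of its 2 probe sets was kidney-enriched. Wnk1 likewise passed on 1 of 5 probe sets.

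Collecting duct principal cells, which vasopressin and aldosterone regulate, gave 11 of 17 (median gap 3.81). Aqp2, the vasopressin-regulated water channel, had 11.47, 11.02, 11.69 and 11.16 in kidney, against 3.72 to 3.94 in brain, 3.90 to 4.40 in heart and 3.76 to 4.34 in liver (gap 7.22 ± 0.17, limma adjusted p = 1.48e-14). Its basolateral counterpart Aqp3 had a gap of 6.52, the sodium pump subunit Fxyd4 5.94, and Hsd11b2, which shields the mineralocorticoid receptor from glucocorticoids, 5.18. Nr3c2, that receptor itself, averaged 8.01 ± 0.17 in kidney, 7.93 in brain, 8.17 in heart and 7.13 in liver and was not enriched. Scnn1a, Scnn1b and Scnn1g, the 3 chains of the epithelial sodium channel, had gaps of 2.39, 3.81 and 4.06.

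Intercalated cells, which secrete acid or base, gave 8 of 11 (median gap 4.15). The proton pump subunits Atp6v1g3, Atp6v0a4 and Atp6v1b1 had gaps of 7.88 ± 0.17, 7.61 ± 0.13 and 4.15 ± 0.20. For Atp6v0a4 the values were 11.26, 11.30, 11.44 and 11.44 in kidney against 4.05 as the highest of the other 12 arrays. Foxi1, the transcription factor on which this cell type depends in mouse, had a gap of 4.99, the ammonia channel Rhcg 4.64 and the base exchanger pendrin, Slc26a4, 4.44. Car2, the cytosolic carbonic anhydrase, averaged 11.04 ± 0.23 in kidney and 10.24 in brain, a gap of 0.80 that did not reach 1.

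Genes for osmolytes of the medulla gave 4 of 7 (median gap 1.00): the urea transporter Slc14a2 (gap 4.33), the inositol transporter Slc5a3 (2.03), Aqp1 (1.18) and the taurine transporter Slc6a6 (1.00). The urothelium list of the renal pelvis, with 4 uroplakins and 2 keratins measured, gave 2 of 6, Upk3a and Upk1a (median gap 0.16). Upk3a had 6.89, 5.50, 5.02 and 5.83 in kidney, highest in rat 126, against 3.41 to 4.24 in the other 12 arrays.

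**Figure D3:**
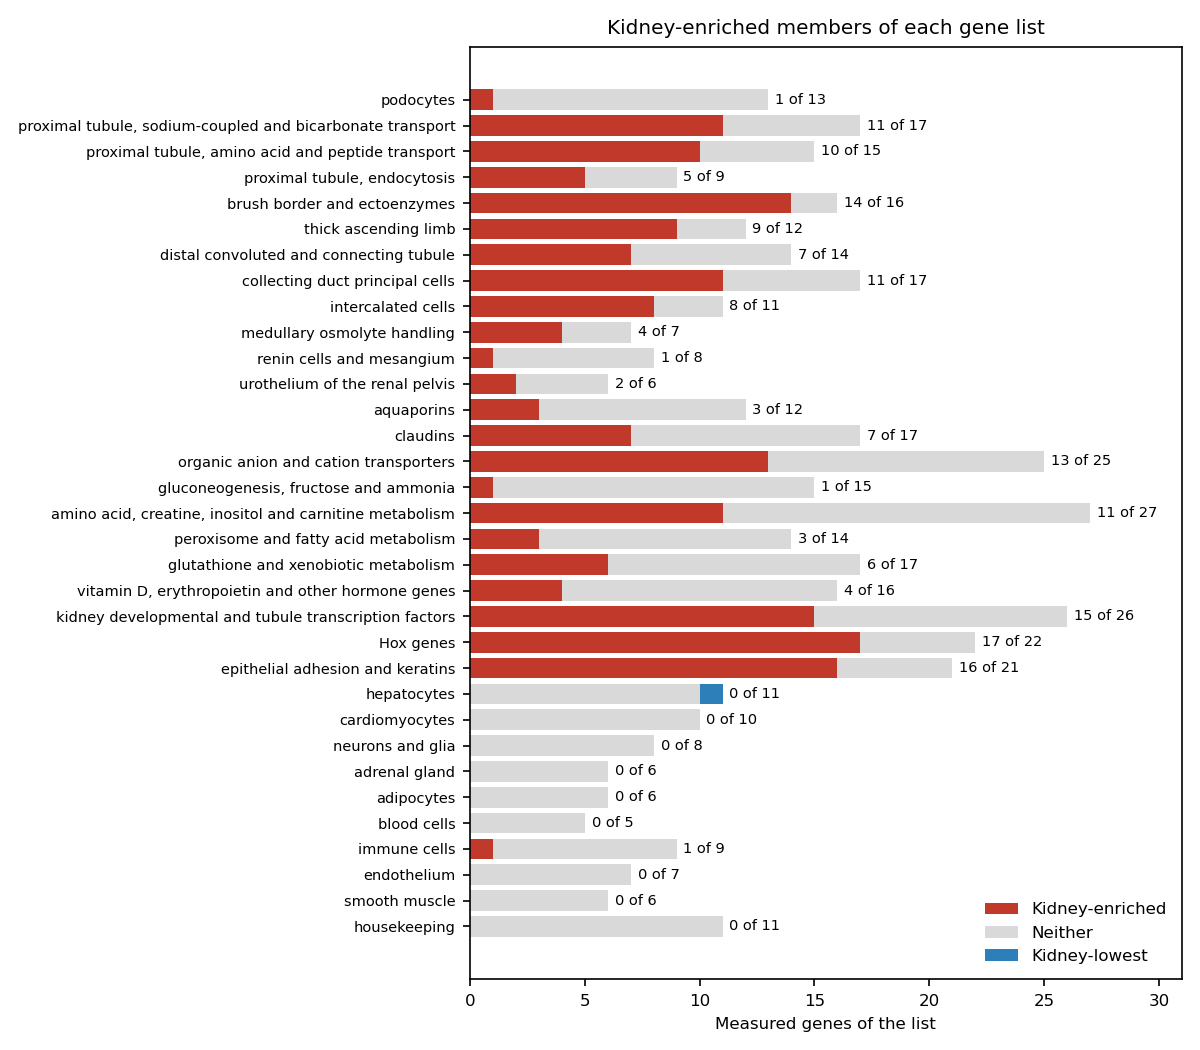
Number of measured genes (horizontal axis) in each of 33 gene lists that were kidney-enriched, lowest in kidney or neither. The brush border list (14 of 16), the Hox genes (17 of 22) and the epithelial list (16 of 21) have the largest enriched shares, and the lists of hepatocytes, cardiomyocytes and neurons and glia have 0.

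Families that run along the whole tubule were uneven. Of 12 measured aquaporins, 3 were enriched, Aqp2, Aqp3 and Aqp1 (median gap -0.09). Aqp7, a glycerol channel, had overlapping values in kidney (10.31, 10.50, 10.19 and 10.44) and heart (10.43, 10.56, 10.42 and 10.52), and was low in brain (3.43 to 3.74) and liver (4.41 to 5.08). Aqp4 was highest in brain, and Aqp8 and Aqp9 were highest in liver. Of 17 claudins 7 were enriched (median gap 0.05), led by Cldn8 with a gap of 6.74 ± 0.14 and including Cldn7, whose value of 8.44 in rat 138 exceeded the 6.65 to 6.88 of the other kidneys. Cldn2, the leaky claudin of the proximal tubule, averaged 9.92 ± 0.20 in kidney and 9.01 in liver, a gap of 0.91.

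The organic ion transporters gave 13 of 25 (median gap 1.13). Slc22a2, a cation transporter that takes drugs such as metformin from blood, had 11.72, 11.72, 11.90 and 11.79 in kidney against 4.69 as the highest other array, and a gap of 7.50 ± 0.17 (limma adjusted p = 8.65e-15). Slc22a6, the main anion transporter on the same side of the cell, had 11.12, 11.40, 11.09 and 11.23 in kidney against 5.41 as the highest other array (gap 6.06 ± 0.14). Slco1a6 (7.33), the extruder Slc47a1 (5.89), Slc22a24 (4.92) and the urate transporter Slc22a12 (4.91) complete the 6 largest. The family splits, since other members were highest in liver: Slc22a7 averaged 7.05 ± 0.31 in kidney and 10.66 in liver, and Abcc2 averaged 6.21 ± 0.35 in kidney and 11.43 in liver.

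Metabolic lists showed how much of the profile kidney shares with liver. Of 15 genes for gluconeogenesis, fructose and ammonia, 1 was kidney-enriched, the fructose transporter Slc2a5 (gap 1.10), yet 14 exceeded both brain and heart in kidney. Over all genes, 10.1% exceeded both by at least 1 at an adjusted p under 0.05. Pck1, the entry enzyme of gluconeogenesis, had 13.41, 13.29, 13.13 and 13.30 in kidney and 13.51, 13.17, 13.22 and 13.28 in liver, which overlap. It had 5.04 to 6.54 in brain and 5.60 to 10.15 in heart, a wide spread between rats in the heart. Fbp1, a later enzyme of the pathway, had 13.21, 13.41, 13.21 and 13.38 in kidney and 12.86 to 12.95 in liver, with the gap of 0.39 ± 0.16 short of the threshold (limma adjusted p = 0.232). G6pc1, the final enzyme, averaged 10.15 ± 0.36 in kidney and 11.66 in liver.

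Of 27 genes for amino acid, creatine, inositol and carnitine metabolism, 11 were kidney-enriched (median gap 0.15) and 26 exceeded both brain and heart. The share of all genes above both by at least 1 at an adjusted p under 0.05 was 10.1%. Miox, the enzyme that breaks down inositol, had 13.07, 13.32, 13.10 and 13.31 in kidney, against 3.83 to 4.81 in brain, 4.16 to 4.59 in heart and 7.95 to 8.51 in liver (gap 4.98 ± 0.20, limma adjusted p = 1.34e-11). The mitochondrial arginase Arg2 had a gap of 4.44, the D-amino acid oxidase Dao 2.98, the acylase Acy3 2.96 and Tmlhe, the first enzyme of carnitine synthesis, 2.86. Gatm, the first enzyme of creatine synthesis, had 12.71, 12.64, 12.20 and 12.38 in kidney and 9.23 to 9.90 in brain (gap 2.88 ± 0.15). The partner enzymes behaved otherwise: Gamt, the second step of creatine synthesis, averaged 10.37 ± 0.08 in kidney and 12.04 in liver, and Bbox1, the last step of carnitine synthesis, averaged 3.84 ± 0.14 in kidney and 10.91 in liver. First steps were thus highest in kidney and last steps highest in liver for these 2 pathways.

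The list of peroxisomal and fatty acid genes gave 3 of 14 (median gap -0.51), Cyp4a8 (gap 6.65), a fatty acid hydroxylase, Acsm2 (4.65) and Acsm3 (1.15), which are medium-chain acyl-CoA synthetases. The glutathione and xenobiotic list gave 6 of 17 (median gap -0.04). Gclc and Gclm, the chains of the first enzyme of glutathione synthesis, had gaps of 3.25 and 1.67, the plasma peroxidase Gpx3 2.56 and Fmo4 3.40, while Gstm1 averaged 8.18 ± 0.36 in kidney and 12.72 in liver.

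Of 16 hormone-related genes 4 were enriched (median gap -0.18): Klk1, Spp1 (gap 4.37), the FGF23 co-receptor Kl (2.85) and the parathyroid hormone receptor Pth1r (2.59). Epo and Cyp27b1 had low signals in kidney. Epo, erythropoietin, averaged 3.68 ± 0.13 in kidney and 3.37 to 3.70 in the other organs, and Cyp27b1, which activates vitamin D, averaged 4.62 ± 0.16 in kidney and 3.81 to 4.09 in the others.

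Transcription factors distinguished kidney from the other organs by many members with moderate gaps. Of 26 measured developmental and tubule factors 15 were enriched (median gap 1.08). Pax8, which specifies the nephric lineage, had 10.48, 9.79, 10.38 and 10.14 in kidney, against 4.59 to 4.90 in brain, 4.67 to 5.56 in heart and 4.92 to 5.31 in liver (gap 5.04 ± 0.19, limma adjusted p = 4.68e-12). Foxi1 (4.99), Tfcp2l1 (4.64) and Gata3 (4.45), factors of the collecting duct, and Emx2 (3.01) and Elf3 (2.98) followed. Hnf4a, a regulator of both hepatocytes and proximal tubule, had 12.16, 12.21, 12.12 and 12.32 in kidney and 12.09, 12.03, 12.17 and 11.79 in liver, against 3.37 to 3.78 in brain and 3.38 to 3.48 in heart. Kidney and liver overlapped, and the gap of 0.18 ± 0.11 did not pass.

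Hox genes, which set position along the body axis, gave 17 of 22 measured members of 38 listed (median gap 2.33). Hoxd8 had 11.42, 11.46, 11.87 and 11.67 in kidney, against 3.41 to 3.62 in brain, 4.06 to 4.69 in heart and 3.28 to 3.90 in liver (gap 7.37 ± 0.15, limma adjusted p = 2.35e-15). Hoxd10 (5.58), Hoxb6 (4.90), Hoxa9 (4.89), Hoxa5 (4.74) and Hoxd9 (4.67) were next. Hoxa2, Hoxd1 and Hoxb13 were near the bottom of the scale in kidney, at 4.16 ± 0.20, 3.35 ± 0.09 and 3.47 ± 0.07.

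**Figure D4:**
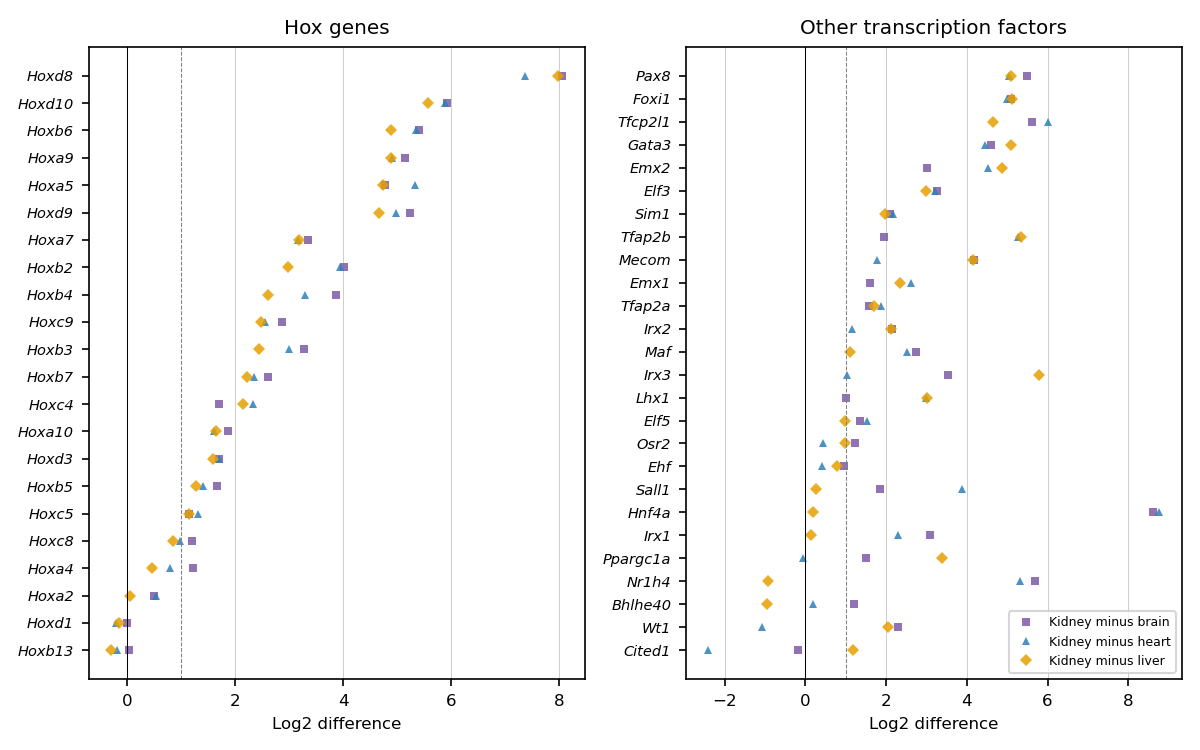
Log2 difference (horizontal axis) of kidney minus brain, minus heart and minus liver for each measured Hox gene (left) and each of 26 other transcription factors (right), with a dashed line at 1. Hoxd8 leads the left panel with all 3 differences above 7, and Hnf4a on the right lies far above brain and heart but near 0 against liver.

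Promoters of enriched genes were searched for motifs of hepatocyte nuclear factors, since HNF1 and HNF4 factors are known regulators of the proximal tubule. Sequences were RefSeq windows of build GRCr8 from 250 bases before a gene's start, and 565 of the 695 enriched genes matched 600 windows. The motif of the HNF1 family searched, GTTAAT followed by any base and then ATT, on either strand, was found in 4 of these 600 windows (0.667%), against 108 of all 33469 windows (0.323%). The motif CAAAGTCC of HNF4, on either strand, was found in 14 of the 600 (2.33%), against 380 of all windows (1.14%). All windows cover 27457 genes, while 11057 measured genes matched a window, so the background also holds genes not measured here. Shares over the measured genes alone were not computed. A match describes letters in the window and is not a bound site, and counts of 4 and 14 are small. No window of an enriched gene held both motifs. The 4 HNF1 matches, with the motif in capitals, were the following stretches on the minus strand, written 5′ to 3′, at chr4:67809121-67809178 for Atp6v0a4, chrX:34027223-34027280 for Cltrn, chr19:51882665-51882722 for Tmed6 and chr17:9917729-9917786 for Cdhr2.
Atp6v0a4: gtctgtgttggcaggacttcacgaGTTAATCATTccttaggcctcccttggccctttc
Cltrn: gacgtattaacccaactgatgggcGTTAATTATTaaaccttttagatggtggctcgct
Tmed6: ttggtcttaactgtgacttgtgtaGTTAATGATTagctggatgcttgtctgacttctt
Cdhr2: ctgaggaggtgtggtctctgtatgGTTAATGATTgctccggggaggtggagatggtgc

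The HNF4 matches of the enriched genes with the 3 largest gaps lie on the strand opposite to the gene, so that the capitals show the reverse complement of the motif. They are on the minus strand at chr17:9239018-9239073 for Slc34a1, chr6:15394806-15394861 for Slc3a1 and chr4:176839176-176839231 for Slco1a6, written 5′ to 3′.
Slc34a1: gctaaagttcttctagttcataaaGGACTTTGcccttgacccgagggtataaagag
Slc3a1: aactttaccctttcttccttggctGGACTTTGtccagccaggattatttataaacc
Slco1a6: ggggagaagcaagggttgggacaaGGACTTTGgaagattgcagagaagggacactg

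The 7 genes shown had gaps of 7.61, 7.24, 4.97 and 2.30 for the first set and 8.68, 7.43 and 7.33 for the second. Their motifs began 62, 132, 50 and 64 bases before the start in Atp6v0a4, Cltrn, Tmed6 and Cdhr2, and 66, 88 and 175 bases before it in Slc34a1, Slc3a1 and Slco1a6.

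Genes shared by kidney and 1 other organ were those in which both exceeded the remaining organs by at least 1 each at an adjusted p under 0.05. Kidney and liver shared 635 such genes (4.73%), kidney and brain 298 (2.22%), and kidney and heart 286 (2.13%). With liver the 8 largest were Hnf4a, Hao2, Cyp2c23, Spink1l, Bhmt2, Apom, Spp2 and Fbp1. Hao2, a peroxisomal hydroxy acid oxidase, had 13.21, 13.45, 13.18 and 13.14 in kidney and 12.17, 12.11, 12.28 and 11.47 in liver, against at most 4.08 in brain and heart, and counts as kidney-enriched too (gap 1.24 ± 0.14). Cyp2c23, an arachidonic acid epoxygenase, had 12.66, 12.88, 12.60 and 12.65 in kidney and 12.69 to 12.77 in liver, against 3.99 to 5.15 in brain and heart. With heart the 8 largest were Aqp7, Aqp1, Fmo2, Tubb4b, Gipc2, Gpx3, Smpx and Lama5. With brain they were Calb1, Mal, Ckmt1, Aqp4, Cldn10, Pou3f3, B3galt5 and Slc1a1. Mal, a protein of myelin and of apical membranes, had 10.87, 10.73, 11.10 and 10.57 in kidney and 10.95, 11.32, 11.08 and 10.80 in brain, which overlap, against at most 4.94 in heart and liver. Ckmt1, the ubiquitous mitochondrial creatine kinase, averaged 10.43 in kidney and 11.81 in brain, and at most 4.18 as a mean in heart or liver. Of windows of genes shared with liver, 8 of 553 (1.45%) held the HNF1 motif and 16 of 553 (2.89%) the HNF4 motif.

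Few genes were lowest in kidney. The gap to the next-lowest organ was 2 or more in 11 of the 66, and in 62 of them the 4 kidney arrays all lay below the other 12, as in 340 of all genes (2.53%). That ordering too describes genes chosen on the same arrays. Vtn, the plasma and matrix protein vitronectin, had 4.64, 5.22, 5.24 and 4.30 in kidney, against 7.93 to 8.29 in brain, 8.57 to 9.07 in heart and 13.30 to 13.45 in liver. Its mean lay 3.28 below that of brain, the next-lowest organ (limma adjusted p = 9.68e-11). Ttr, the thyroid hormone carrier transthyretin, had 4.61, 6.74, 6.42 and 4.63 in kidney, against 13.19 to 13.57 in brain, 8.75 to 8.91 in heart and 13.71 to 13.82 in liver. The kidneys of rats 132 and 138 were the higher ones, and all 4 lay below the other arrays. Gpr155, a cholesterol-sensing membrane protein, had 4.54, 4.54, 5.0 and 4.82 in kidney and 7.32 or more in the other 12 arrays. Ndrg2 had 9.44, 9.42, 9.83 and 9.22 in kidney and 12.09 or more in the others. The remaining genes of the 10 with the largest differences were the pyrophosphate exporter Ankh, the VIP receptor Vipr1, the kinase Plk2, the sodium pump regulator Fxyd1, Clu and the phosphatase Ptprs. For Clu the kidney of rat 126 (12.22) lay within the range of the other organs (11.71 to 12.25), so its call rests on the other 3 kidneys at 8.81 to 9.02.

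Among markers of other cell types that a piece of kidney could carry, 1 immune gene was enriched. Brain, heart and liver are in the comparison, so markers of their own cells could hardly be highest in kidney, and their levels are given for that reason. Cardiomyocyte markers gave 0 of 10, and their mean level in the kidney arrays was 3.74 to 3.94, against 12.91 to 13.14 in heart. Markers of neurons and glia gave 0 of 8, with a mean level of 3.84 to 3.90 in kidney against 10.41 to 10.61 in brain. Adrenal markers gave 0 of 6, at 3.79 to 3.96 in kidney. Hepatocyte markers gave 0 of 11, with Ttr lowest in kidney, but their mean level was 5.24 to 6.50 in kidney against 13.17 to 13.26 in liver. Alb, albumin, varied most, with 7.85, 10.58, 9.53 and 4.52 in kidney against 14.27 to 14.38 in liver. Blood, endothelial, adipocyte and smooth muscle lists gave 0 of 5, 0 of 7, 0 of 6 and 0 of 6, with levels of 4.87 to 5.29, 7.98 to 8.24, 5.42 to 6.33 and 6.56 to 6.87 in kidney. Of all genes 5.17% were kidney-enriched, so lists of 5 to 7 genes would often hold 0. The counts of 0 in these lists and the adrenal list therefore say little. The adipocyte list had a level of 4.44 to 7.08 in heart. Its member Ucp1, the uncoupling protein of brown fat, varied in both organs, with 8.30, 5.29, 8.36 and 4.29 in kidney and 3.97, 6.72, 9.64 and 10.55 in heart, and Cidec, a lipid droplet protein, had 8.61 to 8.96 in kidney and 9.39 to 9.50 in liver. Of 9 immune genes Lyz2, lysozyme of macrophages, was enriched, with 12.82, 12.77, 12.50 and 12.22 in kidney and 11.52 as the highest other array. None of 11 housekeeping genes was kidney-enriched. At an unadjusted limma p under 0.05, the lists in this paragraph with 0 enriched members held 2 genes above the other 3 organs, the endothelial Emcn (gap 0.25) and the housekeeping gene Polr2a (gap 0.36).

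Against brain and heart, most calls repeated in other rats. In 13 Air rats killed at 1, 3 or 24 h, 674 of the 695 genes exceeded both brain and heart by at least 1 at an adjusted p under 0.05, a call made for 10.5% of all genes. The same call in the 6 h rats covered 10.1% of all genes. The 21 others had differences above 0 but did not meet the call, and 0 genes were at or below 0. The median of kidney minus the higher of brain and heart was 2.54 in the other rats and 2.47 in the 6 h rats. For 637 genes the 2 values lay within 0.5 of each other, 1 gene was lower in the other rats by more than 1, and 2 genes were higher by more than 1. The enriched genes with the largest gaps that did not repeat were Areg (gap 1.43), the growth factor amphiregulin, Ptk7 (1.21), Hspa2 (1.20), Wdfy1 (1.16) and Slc28a1 (1.15). Areg had 5.47, 5.60, 4.81 and 6.74 in kidney against 4.49 as the highest other array. Liver was not sampled in these rats, so the comparison with liver was not repeated. Liver was the second-highest organ for 311 of the 695 genes.

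Lung, an organ rich in epithelium, shared part of the set. The comparison with Air lung at 3 and 24 h, with kidney and lung both taken from 3 of the rats, used an adjusted p under 0.05. By this rule 491 of the 695 genes were higher in kidney by at least 1 (12.9% of all genes were). By any amount 557 were higher, a share not counted over all genes, and 77 were lower (31.9% of all genes were). The median of kidney minus lung was 2.05 over the enriched genes and 0.01 over all genes. In the epithelial adhesion and keratin list 16 of 21 were kidney-enriched (median gap 2.47), but 5 of the 16 also exceeded lung by at least 1. Krt7, a keratin of simple epithelia with a gap of 5.90 ± 0.27, ranged from 10.16 to 10.95 in 8 kidneys (median 10.55) and from 10.04 to 10.84 in 6 lungs (median 10.54). The groups overlapped, and the difference was 0.03 ± 0.13 (limma adjusted p = 0.848). Muc1, a mucin of apical membranes, ranged from 9.22 to 9.95 in kidney (median 9.34) and from 10.73 to 11.56 in lung (median 11.33).

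Some genes of tubule segments were also higher in lung. S100g, the calcium-binding protein calbindin-D9k, ranged from 5.03 to 5.94 in kidney (median 5.45) and from 10.57 to 11.21 in lung (median 10.92), a difference of -5.49 ± 0.17 (limma adjusted p = 8.87e-14). Scnn1a was 1.41 ± 0.25 lower in kidney than in lung, and Scnn1g did not differ by more than its error (-0.01 ± 0.12, limma adjusted p = 0.959). Hoxa5 ranged from 9.49 to 9.76 in kidney (median 9.54) and from 10.90 to 11.20 in lung (median 10.99), which do not overlap. Ly6i was lower in kidney (median 10.32) than in lung (median 11.72), and so was Tmc4, by a difference of -0.82 ± 0.10. Prr15l (0.17 ± 0.16) and the epithelial integrin Itgb6 (0.08 ± 0.15) did not pass in either direction. With Krt7 these are the 5 genes with the largest gaps that were not called above lung. By contrast Umod, Slc34a1, Miox, Hoxd8 and Pax8 exceeded lung by 9.46, 9.03, 9.44, 7.63 and 5.52. For Umod the kidneys ranged from 12.92 to 13.14 and the lungs from 3.43 to 3.69.

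**Figure D5:**
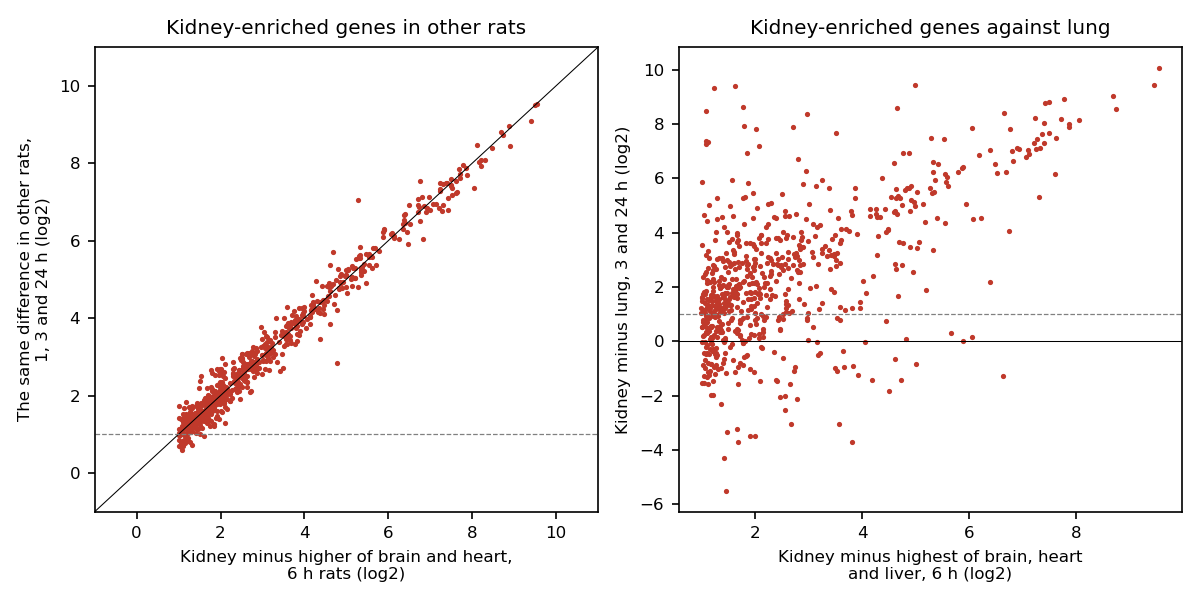
Each point is 1 of the 695 kidney-enriched genes, with log2 differences on both axes and a dashed line at 1. On the left, kidney minus the higher of brain and heart in 13 other Air rats lies close to the 6 h value (median 2.54 against 2.47). On the right, kidney minus lung spreads below 0, with 77 genes called lower in kidney at an adjusted p under 0.05.

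The spread between the 4 kidneys was larger for enriched genes than for all genes as a description: the median SD was 0.226 over the 695 and 0.167 over the 13438. The 13438 include genes near the bottom of the scale, and the sets were not matched for level. For 10 of the 695 the SD exceeded 1, as it did for 60 of the 13438. Dmrtc1c1 had 10.03, 3.62, 10.14 and 10.06 in kidney and 3.15 to 3.95 in the other 12 arrays, so that rat 132 had a kidney value at the level of the other organs. Enpp6, a choline phosphodiesterase of the brush border list, had 9.06, 5.09, 7.98 and 5.35 in kidney. Tmem35b had 8.91, 4.94, 7.87 and 8.99 in kidney. These genes, chosen after their values were seen, met the rule through some rats and not others.

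Few of the kidney-enriched genes, and few of all genes, were called after phosphine at an adjusted p under 0.05. At 1 h, 3 of the 695 rose (0.193% of all genes did) and 0 fell (0.0149% of all did), at 3 h 2 rose (0.0893%) and 1 fell (0.0149%), at 6 h 1 rose (0.0967%) and 2 fell (0.0298%), and at 24 h none passed (0.0149% and 0% of all genes). At an unadjusted limma p under 0.05, 34, 36, 48 and 16 of the 695 were higher at 1, 3, 6 and 24 h (4.89%, 5.18%, 6.91% and 2.30%), against 3.3%, 3.94%, 4.81% and 1.41% of all genes. By the same rule 58, 52, 45 and 5 were lower (8.35%, 7.48%, 6.47% and 0.719%), against 6.68%, 3.34%, 2.89% and 1% of all genes. These unadjusted shares of the 695 lay above those of all genes in both directions at 1, 3 and 6 h. The sets were not matched for level. The median change of the 695 was -0.06, -0.01, -0.02 and 0.03 at 1, 3, 6 and 24 h, against -0.06, 0.01, 0.02 and 0.00 over all genes. Gdf15, a stress hormone, was the one gene called at 1, 3 and 6 h. At 1 h it had 10.28, 9.81, 10.37 and 9.99 in PH3 kidneys, against 7.48, 8.61, 7.70 and 7.80 in Air kidneys, a change of 2.22 ± 0.34 (limma adjusted p = 0.00103). At 3 h it had 8.96, 9.08, 10.26 and 9.56 in PH3 kidneys against 7.02, 7.66, 6.60 and 7.01 in Air kidneys, and at 6 h 8.77, 9.96, 9.0 and 9.52 against 7.62, 6.74, 6.53 and 6.81. The groups did not overlap at these times. Fitted with the arrays of 1 time alone, Gdf15 passed at 1 h (limma adjusted p = 0.0452) but not at 3 h (limma adjusted p = 0.0529) or 6 h (limma adjusted p = 0.0874), and Tmem252 was the 1 enriched gene called at 3 h.

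F3, the tissue factor that starts coagulation, had 9.91, 10.35, 9.65 and 9.55 in PH3 kidneys at 1 h, against 8.79, 8.41, 8.05 and 7.92 in Air kidneys (1.57 ± 0.21, limma adjusted p = 0.000250). F3 was called in each run that left out 1 array at 1 h. With the 1 h arrays alone, Gdf15 was the 1 enriched gene called. Tmem252 rose at 1 h by 1.35 ± 0.25 (limma adjusted p = 0.0106) and at 3 h by 1.38 ± 0.25 (limma adjusted p = 0.0203). A4galt, which makes the glycolipid receptor of Shiga toxin, was lower in PH3 kidneys at 3 h, with 6.13, 6.57, 6.15 and 6.18 against 7.03, 7.73, 7.41 and 7.28 in Air kidneys (-1.11 ± 0.22, limma adjusted p = 0.0330). In 1 of these PH3 kidneys at 3 h, that of rat 152, hepatocyte markers averaged 10.09, against 6.06 to 6.74 in the other 3. Without it Gdf15 was the 1 enriched gene called at 3 h, and the same held without PH3 rat 122 or without Air rat 120 or 150. Cenpp (-0.92 ± 0.17) and Cwc27 (-0.72 ± 0.13) fell at 6 h, each with an adjusted p of 0.0261 in limma. Both calls were lost without Air rat 132, 138 or 156 or PH3 rat 141, and that of Cwc27 also without PH3 rat 140. With the 6 h arrays alone, 0 enriched genes were called. The Air kidneys of this comparison are the 4 that chose the enriched genes. No enriched gene passed the limma F test of whether the effect differed between times.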

How the data were processed

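The deposited values are log2 signals of 31139 probe sets on 125 arrays from 48 rats, which the authors made by RMA (background correction, quantile normalisation and a summary per probe set). RMA, Partek and Affymetrix Expression Console stand in the submitters' processing notes, with no version. The authors' log2 values ran from 2.60 to 14.41, were used as deposited, and 0 columns lacked a sample. With arrays there is no depth, and precision rests on how many were run.

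Gene names came from the platform annotation: 19068 probe sets had 1 symbol, 573 several and 11498 none. Of the named ones 18989 matched RefSeq by gene identifier. For each of the 13438 genes the probe set brightest on average over the 16 arrays was used, and no filter on low values was applied.

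Limma 3.58.1 in R 4.3.3 fitted tissue and rat over the 16 Air arrays at 6 h (lmFit, eBayes with a trend). For enrichment the largest p of the 3 kidney contrasts was adjusted by Benjamini and Hochberg over 19068 probe sets, at 0.05 and a gap of at least 1. The rat is a block because the organs came from the same animals, per the labels. Deviations of organs of 1 rat correlated with a median r of 0.11 over 24 pairs. Further fits covered Air kidney, brain and heart of other rats and Air kidney and lung (both with duplicateCorrelation for the rat), and PH3 against Air over 32 kidney arrays. Values were read with the data.table package, version 1.17.8, and the figures were drawn in Python 3.11.15 with pandas 2.3.3 and matplotlib 3.10.9. The fits were tested on simulated data.

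The genes named are the 25 with the largest gaps, up to 6 enriched members and any kidney-lowest member per list, the 10 lowest in kidney, the 8 most shared with each organ, the 5 with the largest gaps that did not repeat in other rats or were not called above lung, and those changed by PH3. The members and lists were chosen with earlier results of these data known. Alternatives covered the block, the trend, array weights, probe set choice, a filter, 2 centrings, gap thresholds and leaving out each rat or array. Probe sets with no symbol or several are not named here.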

Additional observations from a re-analysis of the deposited data

Results flagged for a closer look

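For 185 sets of 4 kidney values, taken from the named genes and the mean levels of the lists, the highest or lowest array was compared with the gap to its neighbour by Dixon's test. In 9 of them, or 4.86%, 1 array stood apart, which is no more than the 5% that chance gives, so the list below is a description. Rat 126 accounted for 3. Its kidney had Clu at 12.22 (others 8.81 to 9.02), Mep1a at 11.41 (others 11.64 to 11.68) and the hormone list at 6.93 (others 7.20 to 7.24). Rat 138 had Tfcp2l1 at 11.07 (others 10.80 to 10.82), Cldn7 at 8.44 (others 6.65 to 6.88) and the peroxisome and fatty acid list at 9.55 (others 9.90 to 9.97). Rat 156 had Tmlhe at 10.54 (others 10.90 to 10.93) and the amino acid transport list at 9.63 (others 9.44 to 9.45), and rat 132 had Slc14a2 at 7.12 (others 8.02 to 8.15). Havcr1 was compared in the same way after its value was seen, and rat 126 stood apart at 10.34 (others 4.11 to 4.34).

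Probe sets that do not name exactly 1 gene lie outside the comparisons above. Of 11980 such probe sets that were tested, 331 met the same rule for kidney enrichment, with 38 gaps of 4 or more. The largest gap was 6.28, on a probe set with no symbol that averaged 10.26 in kidney, 3.40 in brain, 3.67 in heart and 3.98 in liver.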

How the results depend on the processing

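Of 1958 recomputed values for 152 named genes, 1915 kept their direction and side of the threshold, 43 lost the call and 0 reversed. The losses were mostly gaps that slipped under 1, as for Aqp1 (0.98 with median centring). With a gap of at least 2, 341 genes were kidney-enriched and 11 kidney-lowest. With no minimum gap the counts were 1318 and 304, and against the mean of the other 3 organs 1712 were kidney-enriched. Centring on the median gave 103 kidney-lowest genes and 6072 lower than liver, and centring on housekeeping genes gave 3806 higher and 6183 lower than brain and 98 lowest. Without the replicate block for the rat, 690 genes were enriched and 67 lowest, and the block changed no other count by over 1.5 times. Leaving out a rat, or the kidney array of rat 126 alone (chosen after seeing the data), gave 677 to 698 enriched and 63 to 79 lowest genes, 5270 to 5564 higher and 3657 to 3864 lower than brain, 3962 to 4100 and 3671 to 3967 for heart, and 4063 to 4178 and 3114 to 3367 for liver. For PH3, using the arrays of 1 time at once gave 1, 1 and 0 enriched genes at 1, 3 and 6 h. Leaving out 1 array gave 2 to 7 at 1 h (6 without Air rat 96, 7 without PH3 rat 115), 1 to 9 at 3 h (9 without PH3 rat 105, 1 without Air rats 120 or 150 or PH3 rats 122 or 152), 1 to 4 at 6 h (1 without Air rats 132, 138 or 156 or PH3 rat 141) and 0 to 0 at 24 h. Gdf15 was called in each run that left out 1 array at 1, 3 or 6 h, but not at 3 or 6 h with the arrays of 1 time alone. Causes were not tested. Groups of 4 arrays limit the precision, and signals near the bottom of the scale limit what can be said of genes in few cells.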

Other observations

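Some enriched genes that varied between kidneys, chosen after their values were seen, had wide gaps in the order of their values over the 32 kidneys of the study, PH3 and Air together. The widest, of 3.44, was in Dmrtc1c1, which was at 5.76 or below in 16 kidneys, 8 PH3 and 8 Air, and at 9.20 or above in the other 16. The others were narrower beside the range of the gene, at 1.22 to 1.54, and any ordered set of values can be divided at its largest gap. Tmem35b was at 5.55 or below in 14 kidneys, 7 PH3 and 7 Air, and at 7.09 or above in 18. Akr1b8, an aldo-keto reductase, was at 6.63 or below in 21 kidneys, 10 PH3 and 11 Air, and at 8.05 or above in 11. LOC100909941 was at 5.68 or below in 12, 7 PH3 and 5 Air, and at 6.90 or above in 20. Enpp6 was at 5.35 or below in 3, 1 PH3 and 2 Air, and at 6.78 or above in 29.

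Ephx2, the soluble epoxide hydrolase of the peroxisome list, was not kidney-enriched but was low in 1 rat throughout. It had 6.32, 9.59, 10.16 and 10.41 in kidney, 4.48, 6.35, 7.36 and 7.77 in brain, 7.85, 8.78, 9.58 and 9.47 in heart and 6.00, 8.75, 9.40 and 9.69 in liver of rats 126, 132, 138 and 156. Rat 126 was the lowest in each organ, and rat 132 the next.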
